A study of Nematostella vectensis with 10 samples.

Results

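Transcripts of 5 genes grouped here under GABA signalling were followed in larvae of the sea anemone *Nematostella vectensis*, out of 25729 gene models counted. The members were taken by identifier and by the name printed for them in the study's heatmap of nervous system genes: the GABA receptors NVE9269 and NVE5469, the solute carrier NVE8024 named as a GABA vesicular transporter, the solute carrier family 6 gene NVE7999 and the decarboxylase NVE18494. The deposited files hold identifiers alone, so these names could not be checked against sequence. The names of NVE7999 and NVE18494 do not mention GABA, so the term GABA genes below is only a label for the 5. The study drew its heatmap from genes that differed between tissues in these same libraries. That the genes differ between the tissues, and in which direction, is therefore not independent evidence. All 5 were present in every library and passed the filter on low counts.

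Planula larvae were cut into an apical piece, which carries the apical organ, and the remaining body. Mid-planulae, aged 50 to 60 h after fertilisation, gave 2 libraries of each piece, and late planulae, aged 75 to 85 h, gave 3 of each. All groups came from untreated animals of laboratory culture, and each sample pooled many larvae of several batches. A library is therefore an average over animals, and the p-values below set differences against the estimated spread between pools. No label says that same-numbered apical and body pieces were cut from the same larvae.

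GABA is an amino acid transmitter that is made from glutamate by a decarboxylase. It is loaded into synaptic vesicles by a vesicular carrier and, once released, is taken back into cells by carriers of the solute carrier 6 family, which also holds carriers for other transmitters and amino acids. Receptors for GABA are either chloride channels opened by the transmitter or receptors coupled to G proteins, and which kind NVE9269 and NVE5469 are is not given in the sources used here. The substrate of the decarboxylase NVE18494 and the cargo of NVE7999 are likewise not given. In the cnidarian *Hydra*, GABA is known to affect feeding behaviour.

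The libraries held 14364093 to 27730410 counts (median 20335940). Levels are counts per 1000000 after TMM scaling (CPM), a scaling of library size that discounts the most abundant and the most changed genes. The tissue labels were checked on genes that the study localised by staining. The 6 genes of the apical spot summed to 737 to 1078 CPM in the apical libraries and 37.1 to 51.7 CPM in the body, and the 3 genes of the apical ring to 1018 to 3248 and 86.5 to 168 CPM. The 4 genes of pharyngeal gland cells ran the other way, at 6.63 to 25.3 CPM apically and 1181 to 3370 CPM in the body. The neuropeptide gene NVE226, stained by the study at the apical spot, had 145 to 502 CPM apically and 55.3 to 193 CPM in the body. For this gene the tissues overlapped, as late planula body replicate 1 (193 CPM) lay above late planula apical replicate 2 (145 CPM).

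With the stages pooled, the GABA genes divided into a set higher in the apical tissue and a set higher in the body. The receptor NVE9269, the vesicular transporter NVE8024 and the family 6 carrier NVE7999 were higher in the apical tissue, by 1.66-fold, 1.68-fold and 1.78-fold. The receptor NVE5469 was 4.11-fold and the decarboxylase NVE18494 2.34-fold higher in the body. All 5 passed edgeR's quasi-likelihood test at an adjusted p-value under 0.05, 3 higher apically and 2 in the body, where 11.4% of the 21683 tested gene models passed, 5.43% higher apically and 6.01% in the body. The library ranges of 4 of the 5 did not overlap between the tissues, as for 10.9% of tested models. The log2 fold changes of the members ran from -2.04 (NVE5469) to 0.83 (NVE7999). Their median of 0.73 is the value of NVE9269 and does not describe a shift of the set. The median over all tested models was -0.04.

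**Figure D1:**
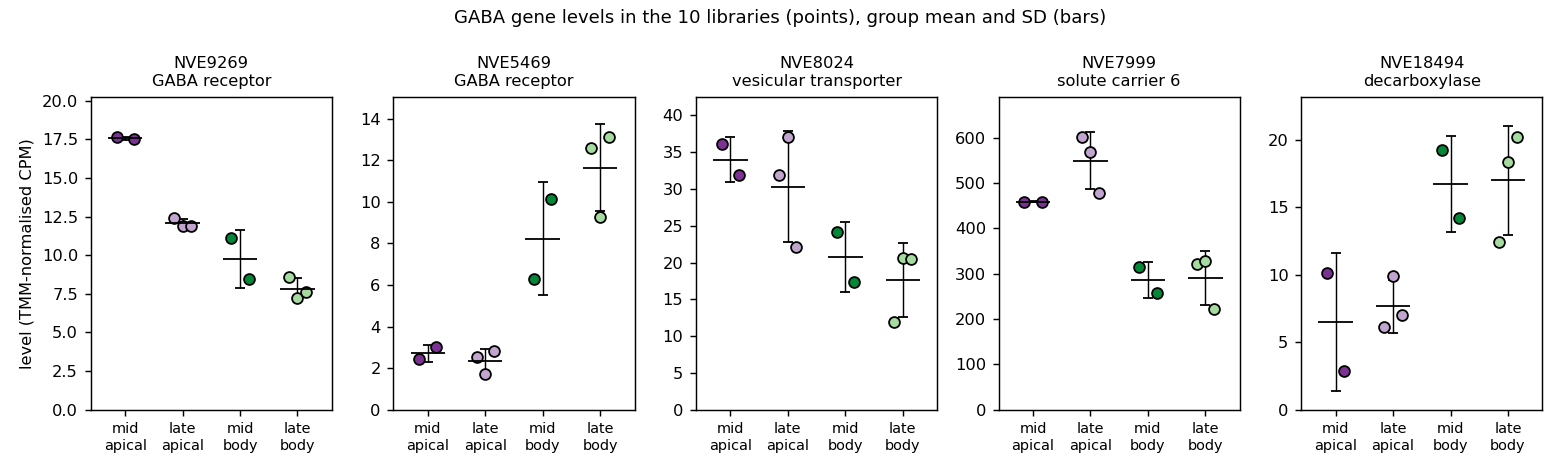
Level of each GABA gene in TMM-normalised CPM (vertical axis from 0, a scale of its own per gene) in the 2 mid-planula apical, 3 late planula apical, 2 mid-planula body and 3 late planula body libraries; points are libraries, horizontal lines group means and bars the SD. NVE5469 lay between 1.71 and 3.0 CPM in the apical libraries and between 6.30 and 13.1 CPM in the body, and NVE7999 between 458 and 600.1 CPM and between 222 and 327 CPM.

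The receptor NVE5469 showed the largest tissue difference of the 5 genes. Its level in the mid-planula apical libraries was 2.43 and 3.0 CPM, and in the late planula apical libraries 2.53, 1.71 and 2.83 CPM. The mid-planula body had 6.30 and 10.2 CPM and the late planula body 12.6, 9.25 and 13.1 CPM. The highest apical library thus lay below the lowest body library. The apical libraries averaged 2.50 ± 0.496 CPM and the body libraries 10.3 ± 2.75 CPM (SD, n = 5 each). In the pooled comparison, apical relative to body, this was a log2 fold change of -2.04 ± 0.28 (SE) with an adjusted p of 0.000231 by edgeR. Ordered by log2 fold change, NVE5469 was at place 922 from the bottom of the 21683 tested models. The apical values rest on 38 to 70 counts per library, with a counting error of 12% to 16.2% each if the counts are independent. In libraries of whole pieces, fewer cells with a transcript and less transcript per cell cannot be told apart, here and for the genes below.

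Of the 5 genes, NVE5469 alone passed the test in the mid-planula, where 4.29% of tested models passed (1.75% higher apically and 2.54% in the body). Its log2 fold change there was -1.60 (95% confidence interval -2.47 to -0.73, adjusted p = 0.0419, edgeR). In the late planula it was -2.31 (-3.04 to -1.58, adjusted p = 0.000579). The mid-planula call ended with 8 of the 10 libraries left out in turn, and held without late planula body replicate 1 or late planula apical replicate 2. Late planula libraries are not in this comparison but share its estimate of the spread. Leaving out a mid-planula library left 1 in its group. The value without mid-planula body replicate 2 was -1.22. The pooled and late planula calls held with each of the 10 libraries left out.

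The other receptor, NVE9269, ran in the opposite direction. Its level was 17.6 and 17.5 CPM in the mid-planula apical libraries and 12.4, 11.9 and 11.9 CPM in the late planula apical libraries. In the mid-planula body it was 11.1 and 8.46 CPM, and in the late planula body 8.61, 7.24 and 7.62 CPM. All apical libraries lay above all body libraries, although late planula apical replicates 2 and 3 were close to mid-planula body replicate 1. The means were 14.3 ± 3.01 and 8.61 ± 1.51 CPM (SD, n = 5 each). The pooled log2 fold change was 0.73 ± 0.22 (SE), with an adjusted p of 0.0460 by edgeR. Within the mid-planula the log2 fold change was 0.84 (0.23 to 1.46, adjusted p = 0.151) and within the late planula 0.63 (0.12 to 1.13, adjusted p = 0.120), and neither passed. The pooled call was close to the threshold. It was lost with 8 of the 10 libraries left out (adjusted p = 0.0516 to 0.118) and held without mid-planula body replicate 1 (0.0353) or late planula apical replicate 2 (0.0464). Of the 9 other alternative settings, 7 kept the call.

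Since both receptors were counted in the same library, their share of each other does not depend on the scaling between libraries. NVE9269 held 87.9% and 85.4% of the summed receptor counts in the mid-planula apical libraries and 83.0%, 87.4% and 80.8% in the late planula apical libraries. In the mid-planula body its share was 63.8% and 45.4%, and in the late planula body 40.6%, 43.9% and 36.8%. The lowest apical share, in late planula apical replicate 3, had a 95% Wilson interval of 74.8% to 85.7%, and the highest body share, in mid-planula body replicate 1, one of 59.4% to 68.0%. These intervals cover counting error only. Per count of NVE5469 there were 4.21 to 7.26 counts of NVE9269 in the apical libraries and 0.582 to 1.76 in the body libraries. The ranges of both receptors were already apart in opposite directions, so that the shares were apart follows from this and is not a further result. Gene lengths were not used, so the change of this ratio between libraries is informative and its size within a library is not a ratio of transcripts.

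The vesicular transporter NVE8024 loads transmitter into vesicles in cells that release it, by the function its name gives. It had 36.2 and 31.9 CPM in the mid-planula apical libraries and 31.9, 37.0 and 22.1 CPM in the late planula apical libraries. It had 24.2 and 17.4 CPM in the mid-planula body, and 11.9, 20.7 and 20.5 CPM in the late planula body. The tissues overlapped when the stages were pooled, as late planula apical replicate 3 lay below mid-planula body replicate 1, but not within either stage. The lowest library of each tissue, late planula apical replicate 3 and late planula body replicate 1, also had the lowest TMM factors (0.742 and 0.828) and the largest shares of counts in the 100 most abundant genes (46.7% and 42.6%), and the part of this in the result was not tested.

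Over both stages, NVE8024 averaged 31.8 ± 5.91 CPM apically and 18.9 ± 4.62 CPM in the remaining body (SD, n = 5 each). The log2 fold change of 0.75 ± 0.22 (SE) had an adjusted p of 0.0431 by edgeR. The mid-planula log2 fold change was 0.71 (-0.03 to 1.44, adjusted p = 0.384) and the late planula one 0.78 (0.17 to 1.38, adjusted p = 0.103), and neither passed. As for NVE9269, the pooled call was lost with 8 of the 10 libraries left out (adjusted p = 0.0696 to 0.0925). It held without mid-planula body replicate 1 (0.0355) or late planula apical replicate 3 (0.0234), with log2 fold changes of 0.85 in either case. Of the 9 other alternative settings, 8 kept the call.

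The family 6 carrier NVE7999 belongs to a family that takes transmitters and amino acids up from outside the cell, and it had the most counts of the 5 genes, with 4455 to 13227 per library. Its level was 459 and 458 CPM in the mid-planula apical libraries and 600.1, 568 and 479 CPM in the late planula apical libraries. Body libraries of mid-planulae had 314 and 257 CPM and those of late planulae 322, 327 and 222 CPM. Every apical library lay above every body library. The means of 513 ± 66.6 and 289 ± 46.8 CPM (SD, n = 5 each) differed by 0.83 ± 0.19 (SE) on the log2 scale, with an adjusted p of 0.00931 by edgeR. This call held with each of the 10 libraries left out (adjusted p = 0.0131 to 0.0332).

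Of the 5 genes, NVE7999 and NVE5469 passed in the late planula, where 10.8% of tested models did (4.61% higher apically and 6.19% in the body). For NVE7999 the late planula log2 fold change was 0.92 (0.43 to 1.41, adjusted p = 0.0197, edgeR). The call was lost without late planula body replicate 3 (0.75, adjusted p = 0.0984) and without late planula apical replicate 1 (0.85, adjusted p = 0.0832). In the mid-planula it was 0.68 (0.08 to 1.28) and did not pass (adjusted p = 0.266).

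The decarboxylase NVE18494, named for the class of enzymes that includes the one making GABA from glutamate, was lower in the apical tissue. The mid-planula body libraries had 19.3 and 14.2 CPM and the late planula body libraries 12.4, 18.4 and 20.2 CPM. The late planula apical libraries had 6.11, 9.88 and 7.0 CPM. The mid-planula apical libraries differed from each other, with 10.1 CPM in replicate 1 and 2.87 CPM in replicate 2, which is the shallowest library and held 44 counts of this gene. Even so, the highest apical library lay below the lowest body library.

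NVE18494 averaged 7.20 ± 2.99 CPM over the apical and 16.9 ± 3.37 CPM over the body libraries (SD, n = 5 each), and its pooled log2 fold change of -1.23 ± 0.31 (SE) had an adjusted p of 0.0187 by edgeR. The call was lost without late planula body replicate 3 (adjusted p = 0.0515) and without late planula apical replicate 1 (adjusted p = 0.0555). Within single stages the differences did not pass, at -1.35 for mid-planulae (-2.41 to -0.28, adjusted p = 0.192) and -1.15 for late planulae (-2.01 to -0.28, adjusted p = 0.0937). The mid-planula value depended on the 2 apical libraries: it was -0.73 (adjusted p = 0.797) without replicate 2 and -2.54 (adjusted p = 0.0181) without replicate 1. The late planula difference was past the threshold without mid-planula apical replicate 1 or 2, which are not in that comparison but share its estimate of the spread (adjusted p = 0.0299 and 0.0295). It was also past the threshold with the DESeq2 Wald test (adjusted p = 0.0394) and with the late planula libraries alone (adjusted p = 0.0404).

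**Figure D2:**
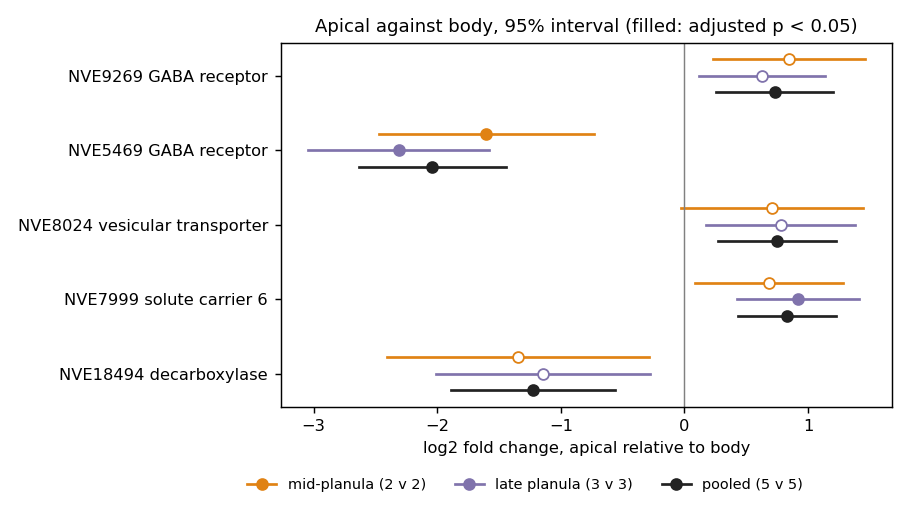
Log2 fold change of each GABA gene, apical relative to body (horizontal axis), with its 95% confidence interval, in the mid-planula, the late planula and the pooled stages; filled points passed an adjusted p-value of 0.05 in edgeR's quasi-likelihood test. NVE5469 passed in all 3 comparisons, from -1.60 to -2.31, and NVE9269, NVE8024 and NVE18494 in the pooled one alone.

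The pooled comparison uses the same libraries as the comparisons within each stage, so its calls are not a repeat of them. Direction was the same in each: 3 genes had a positive and 2 a negative log2 fold change in the mid-planula, the late planula and the pooled stages. The library ranges of all 5 genes were apart within the mid-planula and within the late planula, but with so few libraries this held for 44.5% and 26.6% of tested models as well.

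**Figure D3:**
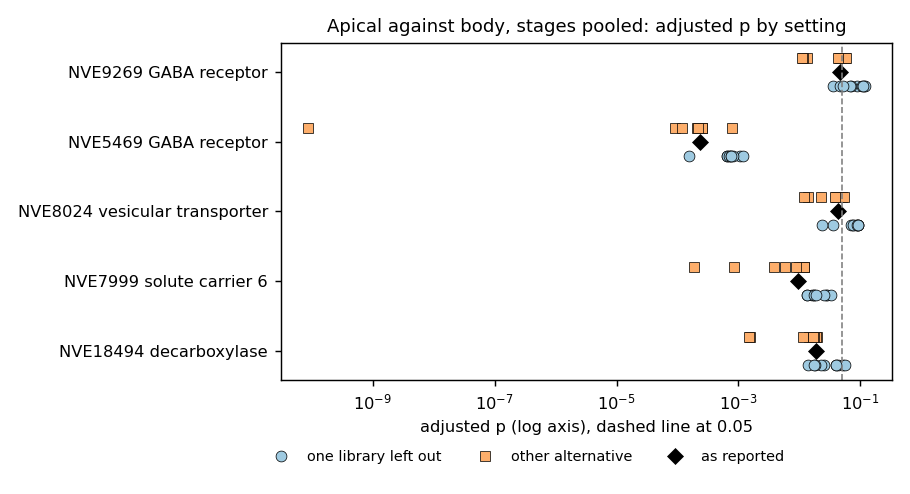
Adjusted p-value of the pooled comparison of apical with body (horizontal axis, log scale, dashed line at 0.05) for each GABA gene as reported, with 1 library left out (10 points) and under the other 9 alternative settings. NVE5469 and NVE7999 stayed left of the line in every setting, whereas NVE9269 and NVE8024 crossed it with 8 of 10 libraries left out.

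The genes on the apical side and on the body side were also set against each other within libraries. The decarboxylase and the vesicular transporter act one after the other in GABA release, if the decarboxylase is the one that makes GABA. There were 0.953 to 1.26 counts of NVE8024 per count of NVE18494 in the body libraries, a mean of 1.11 ± 0.130 (SD, n = 5). In the apical libraries there were 3.16 to 5.22, except in mid-planula apical replicate 2, where there were 11.1. The body libraries thus varied little in this ratio. All of them lay below all apical libraries, which largely follows from the opposite tissue differences of both genes given above. Late planula body replicate 1, which was low for both genes, had a ratio of 0.953 and so did not stand apart.

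**Figure D4:**
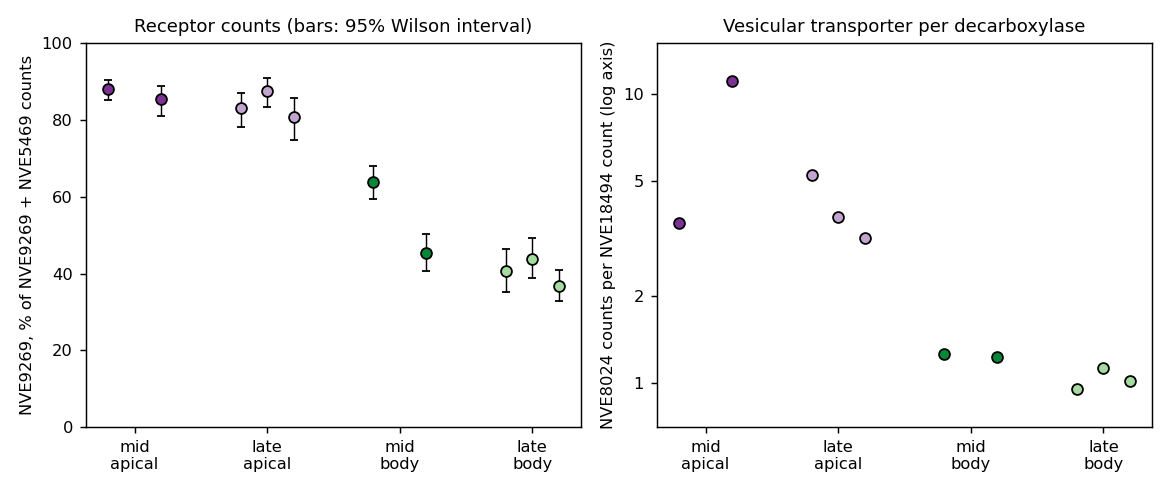
Left, counts of the receptor NVE9269 as a percentage of the counts of both receptors in each library, with 95% Wilson intervals; right, counts of the vesicular transporter NVE8024 per count of the decarboxylase NVE18494 (log axis). The apical libraries sit at 80.8% to 87.9% and the body libraries at 36.8% to 63.8% in the left plot, and at 3.16 to 11.1 and 0.953 to 1.26 in the right one.

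Between the stages, none of the 5 genes passed the test in either tissue. In the apical tissue 2.10% of tested models passed and in the body 2.64%, and of the GABA genes 0 had an unadjusted p-value under 0.05 in edgeR in either tissue, and 0 passed with the DESeq2 Wald test or limma-voom. For NVE9269 in the apical tissue, both mid-planula libraries (17.6 and 17.5 CPM) lay above the late planula libraries (11.9 to 12.4 CPM). Its log2 fold change, late planula relative to mid-planula, was -0.54 (-1.09 to 0.01, unadjusted p = 0.0547, adjusted p = 0.317). The replicates were closer than counting error would give, with coefficients of variation of 0.524% and 2.28% beside counting errors of 4.44% to 7.91% per library. NVE7999 also had apical ranges that did not overlap, the late planula being the higher (log2 fold change 0.26, -0.29 to 0.81, adjusted p = 0.674). Ranges were apart in this comparison for 2 of the 5 genes and for 32.9% of tested models. In the body the ranges of all 5 genes overlapped between the stages.

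NVE5469 had 8.23 ± 2.73 CPM in the mid-planula body (SD, n = 2) and 11.6 ± 2.09 CPM in the late planula body (SD, n = 3), and its log2 fold change was 0.50 (-0.27 to 1.27, adjusted p = 0.515, edgeR). Without mid-planula body replicate 1 it was 0.19 and without mid-planula body replicate 2 it was 0.89. For NVE8024 the apical stage difference was -0.16 (-0.83 to 0.50) and that of the body -0.23 (-0.90 to 0.43). For NVE18494 the apical value was 0.22 (-0.75 to 1.19) and the body value 0.02 (-0.92 to 0.97). The apical value of NVE18494 turned on single libraries, at -0.40 without mid-planula apical replicate 2 and 1.42 without mid-planula apical replicate 1. These intervals leave room for changes in either direction, so the data do not show that the levels stayed the same.

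**Figure D5:**
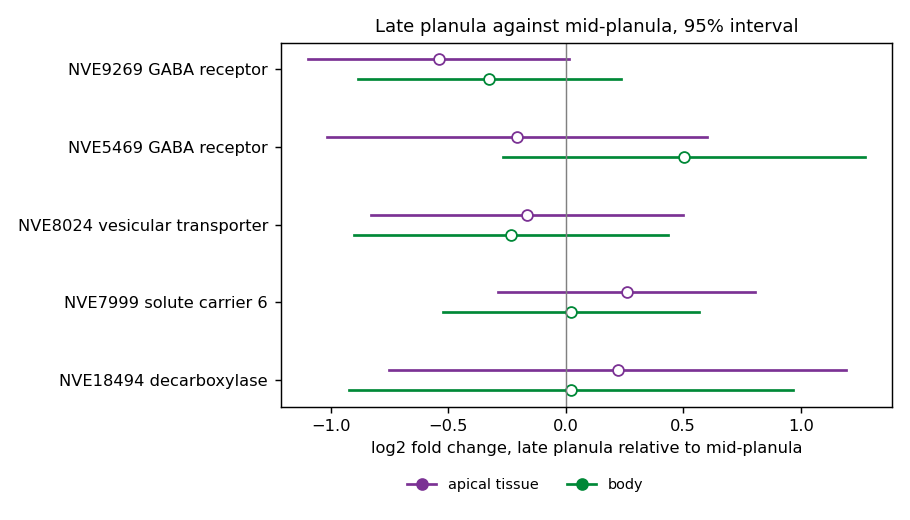
Log2 fold change of each GABA gene, late planula relative to mid-planula (horizontal axis), with its 95% confidence interval, for apical tissue and body separately; open points did not pass an adjusted p-value of 0.05 (edgeR). The intervals of all 10 values include 0, the nearest to excluding it being NVE9269 in the apical tissue (-1.09 to 0.01).

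An interaction term of stage and tissue asked whether a tissue difference itself differed between mid-planula and late planula. Among all tested models 0.0231% passed, and of the 5 GABA genes 0 passed or had an unadjusted p-value under 0.05 (edgeR), nor did any pass with the DESeq2 Wald test or limma-voom. For NVE5469 the tissue difference was -1.60 at mid-planula and -2.31 at late planula, a change of -0.71 (-1.82 to 0.40, unadjusted p = 0.192). With 1 library left out this change lay between -0.40, without mid-planula body replicate 1, and -1.09, without mid-planula body replicate 2. The change was -0.22 for NVE9269 (-1.01 to 0.58), 0.07 for NVE8024 (-0.88 to 1.01), 0.24 for NVE7999 (-0.53 to 1.01) and 0.20 for NVE18494 (-1.15 to 1.55). The value of NVE18494 was 1.40 without mid-planula apical replicate 1 and -0.42 without mid-planula apical replicate 2.

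Ordered by mean level, the 4 groups of NVE5469 ran from late planula apical through mid-planula apical and mid-planula body to late planula body, and only the step from mid-planula apical (2.72 CPM) to mid-planula body (8.23 CPM) separated neighbouring library ranges. For NVE18494, likewise, only the step from late planula apical (7.66 CPM) to mid-planula body (16.7 CPM) did so. NVE9269 rose from late planula body (7.82 CPM) and mid-planula body (9.79 CPM), which overlapped, to late planula apical (12.1 CPM) and mid-planula apical (17.6 CPM), each of which was apart from its lower neighbour. For NVE7999 the mid-planula and late planula body overlapped (286 and 290.4 CPM), and mid-planula apical (458 CPM) and late planula apical (549 CPM) were each apart. For NVE8024 no neighbouring groups were apart, from late planula body (17.7 CPM) to mid-planula apical (34.0 CPM).

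The pattern of each gene over the 10 libraries was compared with that of the other tested models by the root mean square difference of log2 CPM, centred on the mean of each gene. Among the members, NVE9269, NVE8024 and NVE7999 lay 0.334 to 0.371 from each other, while NVE5469 and NVE18494 were 0.788 apart. The pairs across the apical and body sides were 1.14 to 1.48 apart. Genes that differ alike between the tissues are near by this measure, so these distances largely restate the tissue differences. Of all tested models, 2.89% were nearer to NVE9269 than NVE8024 was, and 3.27% nearer than NVE7999 was. For NVE8024, 4.86% were nearer than NVE7999, and for NVE5469, 5.84% were nearer than NVE18494. The gene model most like NVE7999 was NVE12632, at a difference of 0.0778, whose mean was 49.3 CPM apically and 28.8 CPM in the body. NVE651 was the most like NVE8024 (0.109), NVE2027 the most like NVE5469 (0.172) and NVE20538 the most like NVE18494 (0.240). NVE20538 had a low level, with means of 1.03 CPM apically and 2.0 CPM in the body. It did not pass the pooled comparison (adjusted p = 0.191, edgeR). The median difference over all tested models was 0.746 for NVE7999 and 1.19 for NVE5469. The nearest of all models lies below such a median by construction. The files do not pair these identifiers with names, and all these values share the 10 libraries and their depth.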

How the data were processed

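The authors trimmed the paired reads (Trimmomatic 0.36), mapped them (STAR), counted them per gene model (HTSeq 0.6) and deposited the raw counts of 10 mRNA libraries without normalisation. The gene models were those with NVE identifiers, and the library kit (SENSE, Lexogen) marks the strand. The genome build, the strand setting of the counting and the treatment of overlapping or near-identical gene models are not given in the sources used here, so counts of such genes are uncertain. Of the counts between 1 and 20, 75.0% were even in the median library. If this means that the 2 reads of a fragment were counted separately, counting error is larger than stated and the Wilson intervals are too narrow.

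The counts were tested with edgeR 4.0.16 (limma 3.58.1, R 4.3.3) by its quasi-likelihood test, with TMM normalisation, filterByExpr over the 4 groups of stage and tissue (minimum count 10, minimum total 15) and Benjamini-Hochberg adjustment over all 21683 tested models. Comparisons within a stage or tissue and the interaction came from 1 fit of the 4 groups, and the pooled comparison from 5 apical against 5 body libraries without covariates. Standard errors were derived from the F statistic. The alternatives were other normalisations, DESeq2 1.42.0, limma-voom, other filters, halved counts, stage as a covariate, only the compared libraries, a replicate block and leaving out each library. The scripts were tested on simulated data.

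The named genes are the 5 members, the marker genes of the tissue check and the nearest model to 2 members of each side. The members, lists and tests were chosen with earlier results of these data known. Replicates were compared by chi-square per degree of freedom (31.3 to 107), and none was a copy. The RefSeq table at hand (assembly jaNemVect1.1) matched 0 of the 5 identifiers, so no sequence or position is given and other GABA pathway genes were not analysed here.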

Additional observations from a re-analysis of the deposited data

How the results depend on the processing

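Each of the 285 tissue values of the 5 genes under the alternatives kept its direction. In the pooled comparison, where 5 of the genes passed, 3 did with at least 10 counts in every library, and 2 to 5 with each library left out. In the mid-planula, where 1 passed, 0 passed with limma-voom or with only the libraries of that stage, and 0 to 1 with each library left out. In the late planula 2 passed, 3 with DESeq2 or with only the libraries of that stage (NVE18494 in addition), and 1 to 3 with each library left out. NVE9269 also missed the threshold in the pooled comparison without a filter beyond 1 count in any library (adjusted p = 0.0564). The causes were not tested. Where leaving out a library left 1 in a group, that library was assumed to vary like the other groups.

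Counts of passing models over the whole table moved by more than 1.5 times as follows. In the mid-planula, 931 models became 1484 with DESeq2, 596 with at least 10 counts in every library and 419 to 1051 with a library left out. In the late planula, 2343 became 1366 to 2248 with a library left out. Between stages, 455 in the apical tissue became 1488 with DESeq2, 225 with only the compared libraries and 0 to 672 with a library left out, and 572 in the body became 1756 with DESeq2, 1063 with limma-voom and 0 to 779. For the interaction, 5 became 110 with DESeq2, 1 with limma-voom, 10 without the filter, 3 with the stricter filter and 0 to 53.

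Across genes, apical and body libraries with the same number deviated from their group means with a correlation of 0.155 for mid-planulae. For the 3 numbers of late planulae it was 0.235, 0.490 and -0.0918. These values do not settle whether the numbers are pairs, and the main tests did not use them as pairs. With the replicate block, 2 of the 5 genes passed in the mid-planula, NVE18494 among them (adjusted p = 0.0200), and NVE18494 also passed in the late planula (adjusted p = 0.0168). In the pooled comparison all 5 genes passed with the block, as without it. Over the table, the block gave 4313 models in the pooled comparison in place of 2482, and 45 for the interaction. It gave 1392 in the mid-planula in place of 931 and 3249 in the late planula in place of 2343, out of 21683 tested. Of 4 mid-planula libraries 4, and of 6 late planula libraries 3, correlated best with their own number, where with 2 libraries a group the first count follows from the sign of 1 correlation.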

Other observations

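The family 6 carrier NVE7999 and the vesicular transporter NVE8024, both higher in the apical tissue, had similar median ratios in the tissues. This largely follows from their similar tissue differences given above and is not a further result. There were 12.7 to 21.6 counts of NVE7999 per count of NVE8024 in the apical libraries (median 15.3) and 10.8 to 27.2 in the body libraries (median 14.8). The ratio was widest apart among the late planula body libraries, with 27.2 in replicate 1 and 10.8 in replicate 3. Gene lengths were not used, so only the change between libraries can be read from it.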
